A study of Mus musculus with 8 samples.

Results

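The mRNA levels of 10 endothelial and angiogenic genes were followed through hearts of wild-type and fat-1 transgenic mice after sham surgery or pressure overload. The genes were taken by name, and all 10 were found among the 25929 genes of the deposited table by their Ensembl identifiers. They are the endothelial surface genes Pecam1, Cdh5, Kdr, Flt1, Tie1 and Tek and the ligand genes Vegfa, Vegfb, Angpt1 and Angpt2. The 8 RNA-sequencing libraries made up 4 groups of 2: wild-type hearts after sham surgery (WT-Sham) or aortic constriction (WT-TAC), and transgenic hearts after sham surgery (Fat1-Sham) or aortic constriction (Fat1-TAC). A number after the group, as in WT-TAC1, names a single library. WT mice carry the strain label C57BL/6 and fat-1 mice the strain label Fat-1. Per the methods, the fat-1 mice were littermates that carried the Caenorhabditis elegans gene fat-1, an n-3 fatty acid desaturase that turns n-6 into n-3 polyunsaturated fatty acids, and the promoter behind the transgene is not given in the sources used here. The mice were 3 months old when transverse aortic constriction (TAC), a suture that narrows the aortic arch and loads the left ventricle, or the sham operation was done, and pressure overload lasted 8 weeks. The labels name ventricular tissue and 2 independent samples per group. The methods speak of whole hearts.

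Blood vessels are lined by endothelial cells, which hold together through adhesion proteins such as PECAM-1 and VE-cadherin (Cdh5). VEGF-A, a growth factor that cardiomyocytes secrete, drives vessel growth through VEGFR2 (Kdr), while VEGFR1 (Flt1) binds VEGF-A and VEGF-B tightly and can act as a trap. Angiopoietin-1, mostly from perivascular cells, keeps vessels quiet through the receptor TIE2 (Tek), angiopoietin-2 from activated endothelium opposes it in many settings, and TIE1 is a partner of TIE2 without a classical ligand of its own. In the loaded heart, the balance between muscle growth and capillary growth is a long-studied feature of the passage from hypertrophy to failure.

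The start regions of the 4 receptor genes are shown because these genes form the VEGF and TIE receptor pairs that the results compare. Each line gives the 250 bases before the annotated start from RefSeq (GRCm38.p6), 5′ to 3′ on the gene's strand. The capitals mark GGAAG or its reverse complement CTTCC, letters that ETS factors, transcription factors of endothelial genes, can bind. Other letters that these factors bind were not searched for.
Kdr, chr5:75978456-75978705, minus strand: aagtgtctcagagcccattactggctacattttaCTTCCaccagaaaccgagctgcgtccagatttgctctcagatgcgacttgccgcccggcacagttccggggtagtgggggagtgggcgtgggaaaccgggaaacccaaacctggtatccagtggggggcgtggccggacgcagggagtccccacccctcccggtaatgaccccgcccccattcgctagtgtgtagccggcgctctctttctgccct
Flt1, chr5:147726012-147726261, minus strand: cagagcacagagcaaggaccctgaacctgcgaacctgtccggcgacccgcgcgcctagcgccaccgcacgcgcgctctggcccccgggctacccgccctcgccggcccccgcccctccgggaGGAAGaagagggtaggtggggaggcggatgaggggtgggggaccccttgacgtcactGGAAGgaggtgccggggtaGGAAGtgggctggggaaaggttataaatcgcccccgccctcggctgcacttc
Tie1, chr4:118489850-118490099, minus strand: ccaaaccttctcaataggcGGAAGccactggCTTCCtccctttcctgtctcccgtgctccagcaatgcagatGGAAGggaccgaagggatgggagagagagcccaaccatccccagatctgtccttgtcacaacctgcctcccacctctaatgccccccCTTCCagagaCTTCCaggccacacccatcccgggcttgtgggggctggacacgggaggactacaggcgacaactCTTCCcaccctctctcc
Tek, chr4:94739039-94739288, plus strand: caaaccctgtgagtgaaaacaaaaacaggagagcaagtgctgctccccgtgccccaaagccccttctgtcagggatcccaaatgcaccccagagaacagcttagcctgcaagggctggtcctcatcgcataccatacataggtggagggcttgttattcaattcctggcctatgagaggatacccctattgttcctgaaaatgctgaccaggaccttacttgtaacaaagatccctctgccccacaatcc
GGAAG or CTTCC occurred 1 time before Kdr, 3 times before Flt1, 6 times before Tie1 and 0 times before Tek. Of the 32851 RefSeq start regions of this length, 64.1% held either at least once. The window before Flt1 also held the TATA box letters TATAAA, which 12.4% of all windows held on either strand, and the windows before Kdr and Flt1 held 2 and 3 copies of GGGCGG or its reverse complement, which 32.7% of all windows held. TAAACA, read on both strands and bound by FOX factors, was in 12.0% of all windows and in none of these 4. RefSeq regions were also matched for Vegfa and Vegfb, and none was matched for Pecam1, Cdh5, Angpt1 and Angpt2. The letters are a description of the sequence and not a measurement of binding. For Tie1, the GENCODE M21 annotation (GRCm38) places the start at 118490061, so most of its window lies inside the gene as annotated there.

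Levels are in FPKM, fragments per kilobase of transcript, scaled to the depth of the library. The order between genes therefore depends on the length taken for each gene. That length was 1230 bases for Vegfa, 966 for Vegfb, 2989 for Flt1 and 4374 for Kdr. In WT-Sham1, Kdr had 2619 fragments and Flt1 2369, though Flt1 had the higher FPKM. Vegfa had the highest FPKM of the 10 genes in each group, followed by Vegfb, and Angpt2 the lowest. In WT-Sham the means ran from Vegfa (276 FPKM) and Vegfb (209 FPKM) through Cdh5 (85.4 FPKM), Pecam1 (81.1 FPKM), Flt1 (53.5 FPKM), Kdr (45.0 FPKM), Tie1 (32.9 FPKM), Tek (20.0 FPKM) and Angpt1 (16.8 FPKM) to Angpt2 (2.54 FPKM). The library ranges of neighbours in this order overlapped for Cdh5 and Pecam1 and for Tek and Angpt1. In Fat1-Sham, where no neighbours overlapped, Kdr (57.1 FPKM) stood above Flt1 (53.3 FPKM). In WT-TAC the ranges overlapped for 6 of the 9 neighbouring pairs, among them Vegfa with Vegfb, Flt1 with Kdr and Kdr with Tie1, and in Fat1-TAC for Flt1 with Kdr alone. Vegfa lay above 98.8% and Angpt2 above 55.4% of all genes of the table by mean level.

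Depth was recovered from the FPKM values, which were whole numbers of fragments to within 0.001 fragment, and ran from 14163994 to 21218331 fragments per library. Vegfa rested on 4088 to 9484 fragments per library, Kdr on 2139 to 4964 and Angpt2 on 64 to 120. For Angpt2 the exact Poisson 95% interval of a single library was as wide as 1.29 to 2.14 FPKM in Fat1-TAC2. Such intervals cover counting error only, and duplicate reads of the same molecule were not separable. The 10 genes are protein-coding, and the table gives a single value per gene, so the membrane and soluble forms of VEGFR1 or the splice forms of VEGF-A could not be told apart. GENCODE M21 (GRCm38) lists 8 coding transcripts of Vegfa, 2 of Flt1 and 1 of Kdr. Antisense genes overlap Cdh5 (Gm29682), Angpt1 (Gm17473) and Angpt2 (Mcph1), and no use of strand in the counting is given in the sources used here, so reads of these partners may be mixed.

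**Figure D1:**
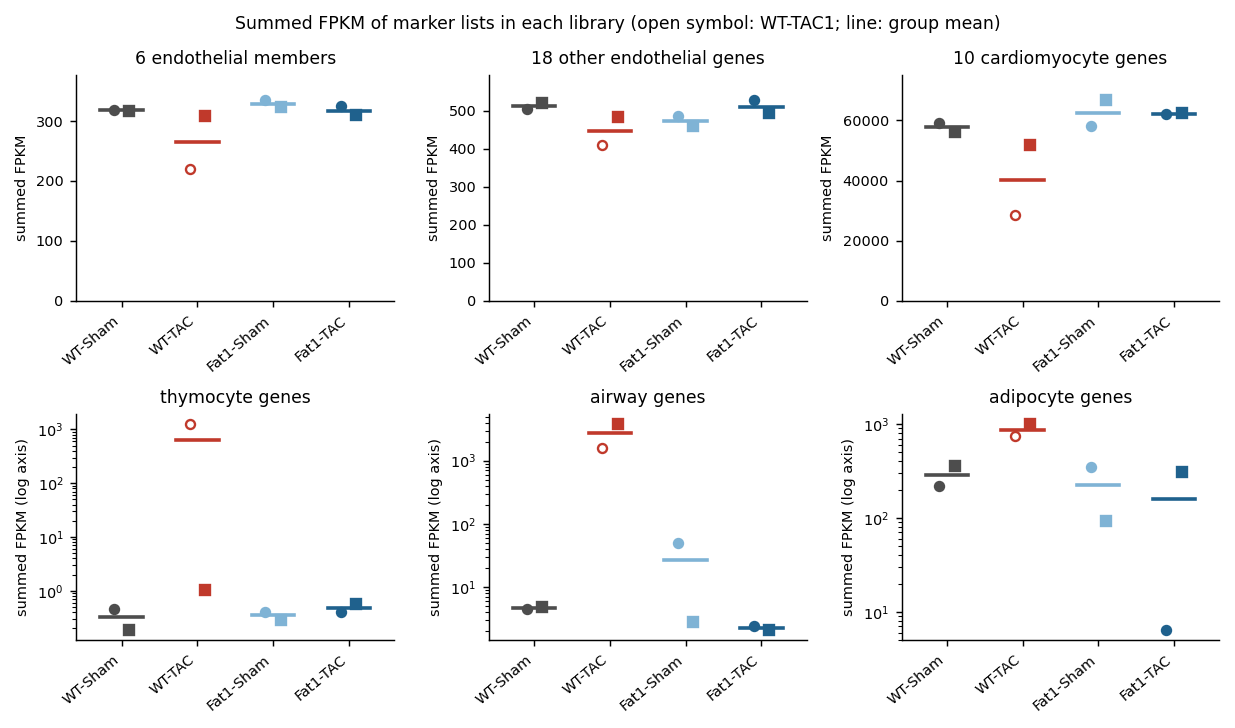
Summed FPKM of 6 marker lists in each library, by group (circle, replicate 1; square, replicate 2; open circle, WT-TAC1; line, group mean), with a log axis in the lower row. WT-TAC1 was lowest for endothelial and cardiomyocyte genes and at 1256 FPKM for thymocyte genes, which stayed between 0.187 and 1.04 FPKM elsewhere.

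One library stood apart before any gene was compared. WT-TAC1 lay at 116.4 on the first principal component (69.7% of the variance), and the other 7 lay between -35.9 and 24.4. The 10 cardiomyocyte markers summed to 28409 FPKM in WT-TAC1 and to between 51726 and 66872 FPKM in the other libraries. The 5 measured markers of immature thymocytes summed to 1256 FPKM there and to between 0.187 and 1.04 FPKM elsewhere. All 8 airway epithelial markers were higher in WT-TAC without overlap with WT-Sham, and their sum was 1605 FPKM in WT-TAC1, 3792 FPKM in WT-TAC2 and between 2.09 and 50.4 FPKM in the other 6 libraries. These 2 groups did not overlap for 59.6% of the genes tested. Adipocyte markers summed to 748 and 996 FPKM in WT-TAC and to between 6.43 and 353 FPKM elsewhere. The markers of lung endothelium summed to 58.6 FPKM in WT-TAC1, 43.1 FPKM in WT-TAC2 and between 30.0 and 46.5 FPKM elsewhere. The part of this other tissue in the vascular results was not tested. The main results of the 10 genes are given with and without WT-TAC1. Many results of the gene lists include WT-TAC1 and have no value without it here. Endothelium was present in each library: the 18 other endothelial genes, from Emcn to Tal1, were all detected and summed to 410 FPKM in WT-TAC1 and to between 460 and 529 FPKM in the others.

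**Figure D2:**
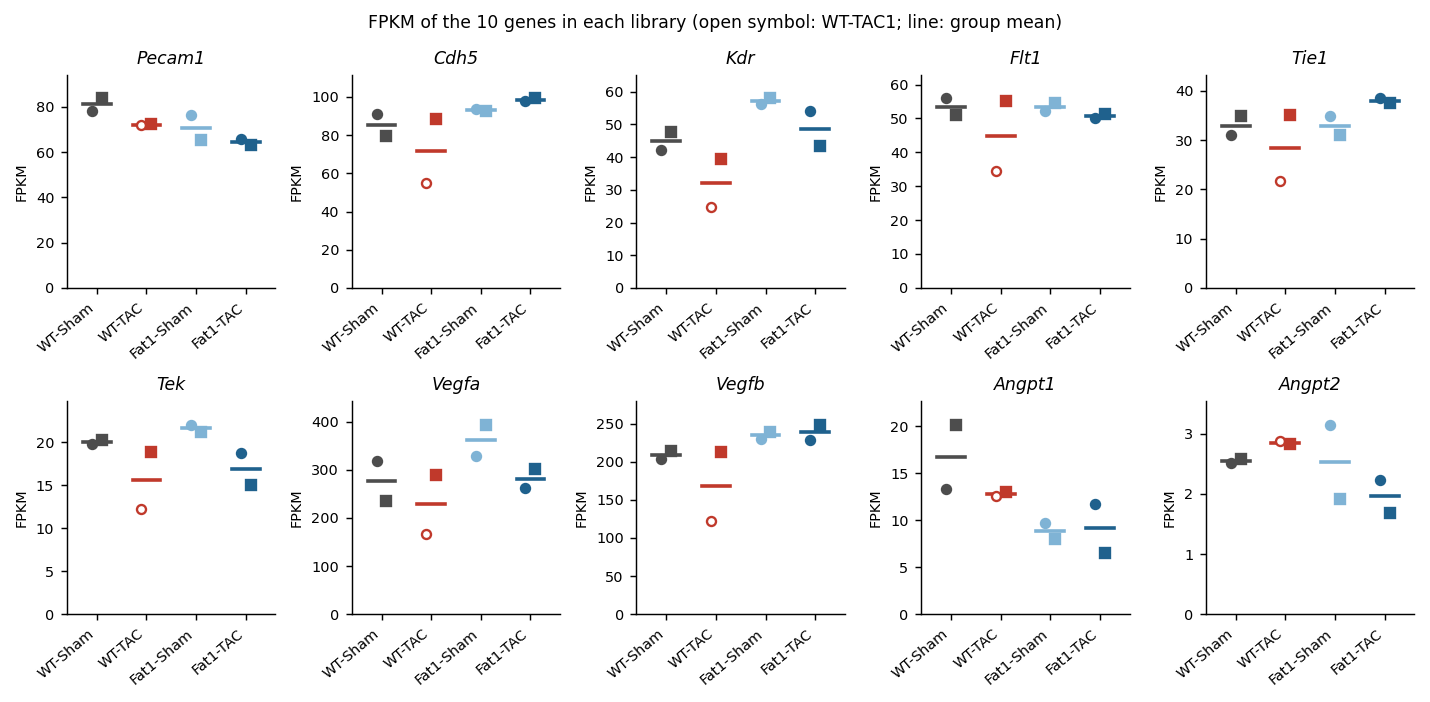
FPKM of each of the 10 genes in the 8 libraries, by group (circle, replicate 1; square, replicate 2; open circle, WT-TAC1; line, group mean; axes start at 0). WT-TAC1 was the lowest library for 7 genes, from Cdh5 to Vegfb, while Pecam1, Angpt1 and Angpt2 had their lowest value in Fat1-TAC2.

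The junction genes did not follow each other. Pecam1, an adhesion molecule of endothelium that leukocytes and platelets also carry, had 78.3 and 83.8 FPKM in WT-Sham, 72.0 and 72.2 in WT-TAC, 76.5 and 65.2 in Fat1-Sham and 65.6 and 63.0 in Fat1-TAC. Its highest values were those of WT-Sham, the Fat1-TAC mean was the lowest of the 4, and WT-TAC1 did not stand out. Cdh5, the adherens junction cadherin specific to endothelium, had 91.2 and 79.6 FPKM in WT-Sham, 55.1 and 88.5 in WT-TAC, 93.8 and 92.7 in Fat1-Sham and 97.8 and 99.3 in Fat1-TAC. The 4 fat-1 libraries held the 4 highest values of Cdh5, and WT-TAC1 the lowest.

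Kdr encodes VEGFR2, the main signalling receptor for VEGF-A. It had 42.3 and 47.6 FPKM in WT-Sham, 24.7 and 39.3 in WT-TAC, 56.3 and 58.0 in Fat1-Sham and 54.2 and 43.3 in Fat1-TAC. The 2 WT-TAC libraries were the lowest of the 8, and 3 of the 4 fat-1 libraries exceeded every WT library. Flt1, the gene of VEGFR1, had 56.0 and 51.0 FPKM in WT-Sham, 34.6 and 55.2 in WT-TAC, 52.1 and 54.6 in Fat1-Sham and 50.1 and 51.4 in Fat1-TAC. Apart from WT-TAC1, the highest library of Flt1 was only 1.12 times the lowest, the narrowest range among the 10 genes over these 7 libraries.

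Tie1 had 31.0 and 34.8 FPKM in WT-Sham, 21.8 and 35.1 in WT-TAC, 34.8 and 30.9 in Fat1-Sham and 38.5 and 37.5 in Fat1-TAC, so that the Fat1-TAC libraries were the highest. Tek, its partner and the receptor of the angiopoietins, had 19.8 and 20.3 FPKM in WT-Sham, 12.3 and 18.8 in WT-TAC, 22.1 and 21.2 in Fat1-Sham and 18.8 and 15.0 in Fat1-TAC. All 4 TAC libraries lay below all 4 sham libraries for Tek.

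Among the ligands, Vegfa had 318 and 234 FPKM in WT-Sham, 168 and 289 in WT-TAC, 329 and 394 in Fat1-Sham and 261 and 301 in Fat1-TAC. The 2 Fat1-Sham libraries were the highest and WT-TAC1 the lowest. Vegfb, a relative of Vegfa that binds VEGFR1 and is abundant in heart muscle, had 203 and 214 FPKM in WT-Sham, 123 and 213 in WT-TAC, 230 and 239 in Fat1-Sham and 229 and 249 in Fat1-TAC. Its 4 fat-1 values were the 4 highest. Angpt1 had 13.4 and 20.2 FPKM in WT-Sham, 12.6 and 13.0 in WT-TAC, 9.66 and 8.01 in Fat1-Sham and 11.8 and 6.51 in Fat1-TAC. Its 4 fat-1 values were the 4 lowest, and its 3.10-fold span from lowest to highest was the widest of the 10 genes. Angpt2 had 2.51 and 2.57 FPKM in WT-Sham, 2.87 and 2.83 in WT-TAC, 3.15 and 1.92 in Fat1-Sham and 2.24 and 1.67 in Fat1-TAC. The 2 Fat1-Sham values spanned all but the lowest library.

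**Figure D3:**
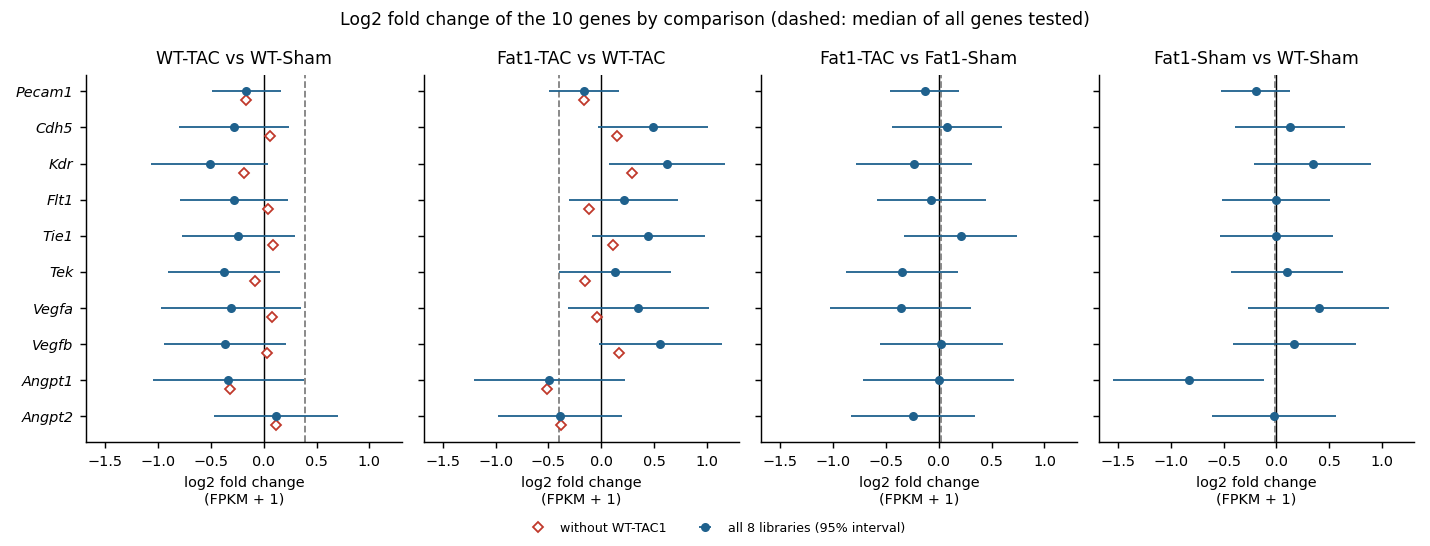
Log2 fold change of log2(FPKM + 1) for each gene in 4 comparisons, with limma's 95% interval (filled points), the value without WT-TAC1 (open diamonds) and the median of all genes tested (dashed line). In WT-TAC against WT-Sham 9 of 10 points lay below 0 and all 10 below the dashed line at 0.39. Most diamonds lay near 0. Scaling to cardiomyocyte markers, which is not plotted, put all 10 log2 fold changes above 0.

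In WT-TAC, 9 of the 10 genes had a lower mean than in WT-Sham, with Angpt2 the exception, and none passed the test. The means of all 10 were higher when libraries were scaled to cardiomyocyte markers. Expression was compared with limma on log2(FPKM + 1) over the 14442 genes that reached 1 FPKM in 2 or more libraries, a filter that all 10 passed. The methods' cutoffs were kept, so that a call needed an adjusted p below 0.1 together with a mean at least 1.5 times higher or lower. Of the 10 genes, 0 were called, against 0.935% of all genes, and 0 had an unadjusted p under 0.05, against 27.5%. The limma-voom test on recovered fragments and a per-gene test also called 0 of the 10, here and in the comparisons that follow. The groups did not overlap for 5 of the 10 (Angpt2 higher; Pecam1, Kdr, Tek and Angpt1 lower), against 59.6% of all genes. That share was made up of 7589 genes higher and 1024 lower in WT-TAC. Kdr was the lowest relative to sham, at 32.0 ± 10.3 FPKM in WT-TAC and 45.0 ± 3.8 FPKM in WT-Sham (SD, n = 2), a log2 fold change of -0.51 (SE 0.23, 95% interval -1.06 to 0.04, limma adjusted p = 0.189). The median log2 fold change of the 10 genes was -0.30, whereas that of all genes tested was 0.39, and none of the 10 exceeded the latter. In bulk tissue, fewer endothelial cells, less RNA per endothelial cell and a larger share of RNA from other tissue cannot be told apart.

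This pattern rested on WT-TAC1. Without that library the median of the 10 genes was 0.036 against 0.21 for all genes, 6 genes had a higher mean in WT-TAC2 than in WT-Sham, and Kdr stood at -0.19 (limma adjusted p = 0.523). With WT-TAC1 as the only WT-TAC library, assumed to vary like the other groups, 6 of the 10 genes were called lower (Cdh5, Kdr, Flt1, Tek, Vegfa and Vegfb), against 6.31% of all genes called lower and 45.0% called higher. Of these, Vegfb stood at -0.76 and Kdr at -0.84. The cardiomyocyte markers moved alongside, with all 10 lower in WT-TAC at a median of -0.53, and -0.11 without WT-TAC1. With libraries scaled to those markers, an alternative added later, the median of the 10 genes was 0.27 and that of all genes 0.90, and with the median-of-ratios scaling the medians were -0.76 and -0.02.

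Between Fat1-TAC and WT-TAC, the comparison that asks what the transgene changes under load, 7 of the 10 genes had a higher mean in fat-1 hearts and Pecam1, Angpt1 and Angpt2 a lower one, whereas all 10 were lower when libraries were scaled to cardiomyocyte markers. None was called, against 1.43% of all genes, and 1 of 10, Kdr, had an unadjusted p under 0.05, against 29.4%. By direction, 352 of all genes were higher and 3901 lower in Fat1-TAC at that unadjusted limma p. Kdr reached 48.7 ± 7.7 FPKM in Fat1-TAC and 32.0 ± 10.3 FPKM in WT-TAC (SD, n = 2), a log2 fold change of 0.62 (SE 0.23, 95% interval 0.07 to 1.17, limma adjusted p = 0.164). The next were Vegfb at 0.56 (SE 0.25), Cdh5 at 0.49 (SE 0.22) and Tie1 at 0.44 (SE 0.23), with limma adjusted p from 0.173 to 0.201. The libraries of 7 genes did not overlap, with Cdh5, Kdr, Tie1 and Vegfb above and Pecam1, Angpt1 and Angpt2 below in Fat1-TAC, against 66.4% of all genes. That share was made up of 1348 genes above and 8248 below. The median of the 10 genes was 0.28 and that of all genes -0.40, and 9 of 10 exceeded the latter.

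Here too WT-TAC1 set the size. Without it the median of the 10 genes was -0.081 and Kdr stood at 0.29 (limma adjusted p = 0.346), Vegfb at 0.16 and Cdh5 at 0.15, while Flt1, Tek and Vegfa turned to -0.12, -0.16 and -0.04. With WT-TAC1 as the only WT-TAC library, 5 genes were called higher in Fat1-TAC (Cdh5, Kdr, Tie1, Vegfa and Vegfb), against 7.44% of all genes called higher and 46.8% called lower. The 3 genes with lower means hardly moved, with Angpt1 at -0.49 in all libraries and -0.51 without WT-TAC1, and Angpt2 at -0.39 and -0.38. When libraries were scaled to the cardiomyocyte markers, the median of the 10 genes was -0.36 and that of all genes -0.98.

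In fat-1 hearts, 3 of the 10 genes had a higher and 7 a lower mean after pressure overload than after sham surgery, and none passed the test. Of the 10, 0 were called, against 0.00692% of all genes, and 0 had an unadjusted p under 0.05, against 2.58%. The median was -0.10 beside 0.02 for all genes. Tek was lower after TAC by -0.35 (SE 0.22, 95% interval -0.88 to 0.18), at 16.9 ± 2.7 FPKM against 21.6 ± 0.6 FPKM (SD, n = 2). Tie1 was higher by 0.21 (SE 0.23, 95% interval -0.33 to 0.74). The groups did not overlap for 6 of 10 (Cdh5 and Tie1 higher; Kdr, Flt1, Tek and Vegfa lower), against 48.3% of all genes. With all 8 libraries the 95% interval of each of the 10 genes included 0, and that of Vegfa ran from -1.03 to 0.31. These errors also draw on the spread within WT-TAC, and without WT-TAC1 the same log2 fold changes had smaller ones, with an SE of 0.12 for Tek (limma adjusted p = 0.421) and 0.17 for Vegfa (limma adjusted p = 0.492).

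Without load, the transgene comparison turned on Angpt1, which had a mean of 8.84 ± 1.16 FPKM in Fat1-Sham and 16.8 ± 4.8 FPKM in WT-Sham (SD, n = 2). Its log2 fold change was -0.83 (SE 0.30, 95% interval -1.55 to -0.12), with an unadjusted limma p of 0.0284 and an adjusted p of 1. It was the only one of the 10 with an unadjusted p under 0.05, against 1.25% of all genes, and 0 of 10 were called, against 0% of all genes. Under 19 alternatives it lay between -1.11 and -0.55 and was called under 0. Some other cell markers had lower means in Fat1-Sham too: all 8 fibroblast genes (median -0.44), all 7 macrophage genes (median -0.32) and 4 of 5 erythroid genes (median -0.81). Other lists had mostly higher means, among them 6 of 9 mural genes (median 0.16) and 8 of 10 cardiomyocyte genes (median 0.09). So did 5 of 5 tested alveolar genes (median 0.74) and 5 of 6 B-cell genes (median 0.10). Of all these genes 0 were called. The fibroblast markers summed to 644 FPKM in WT-Sham1, 1045 FPKM in WT-Sham2, which had the highest Angpt1, and 628 and 567 FPKM in Fat1-Sham. Their part in the Angpt1 result was not tested. Vegfa (0.40, SE 0.28) and Kdr (0.34, SE 0.23) had the largest positive values. The groups did not overlap for 7 of 10 (Cdh5, Kdr, Tek, Vegfa and Vegfb higher; Pecam1 and Angpt1 lower), against 32% of all genes. The means of this comparison do not include WT-TAC1, but its errors draw on the spread of all groups, and without that library the SE was 0.30 for Angpt1, 0.17 for Vegfa and 0.13 for Kdr, with limma adjusted p of 0.916 for each. The median was 0.05 beside -0.01 for all genes.

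The response to TAC was not shown to differ between the genotypes for any of the 10 genes. The interaction, the TAC response in fat-1 minus that in WT hearts, was largest for Tie1 at 0.45 (SE 0.32, 95% interval -0.31 to 1.20, limma adjusted p = 0.501), followed by Vegfb at 0.39 and Cdh5 at 0.36. Of the 10, 0 were called, against 0.0692% of all genes, and 0 had an unadjusted p under 0.05, against 7.26%. The median interaction was 0.25 with WT-TAC1 and -0.026 without it, beside -0.37 and -0.19 for all genes.

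Averaged over surgery, fat-1 and WT hearts were compared with 4 libraries each, a comparison added after the values were seen. Kdr and Angpt1 had an unadjusted p under 0.05, as had 14.9% of all genes, and 0 of 10 were called, against 0.0415%. By direction, 172 of all genes were higher and 1978 lower in fat-1 at that unadjusted limma p. Kdr was higher in fat-1 by 0.48 (SE 0.17, limma adjusted p = 0.293) and Angpt1 lower, at -0.66 (SE 0.21, limma adjusted p = 0.282). The 4 fat-1 libraries did not overlap the 4 WT libraries for 3 genes, Cdh5 and Vegfb above and Angpt1 below, against 5.54% of all genes. That share was made up of 142 genes above and 658 below. Without WT-TAC1, Angpt1 stood at -0.67 and Kdr at 0.32 (limma adjusted p = 0.251 and 0.231). Angpt1 kept its sign under all 18 alternatives, between -0.99 and -0.38, as did Kdr between 0.13 and 0.73, and each was called under 1 of them, the one that left WT-TAC1 alone in its group. For TAC against sham over both genotypes, also added later, 0 of 10 were called, against 0% of all genes, 0 had an unadjusted p under 0.05, against 15.8%, and Tek was the only one whose groups did not overlap, against 9.28%. The genes without overlap were 1130 above and 210 below after TAC. Tek was lower after TAC by -0.36 (SE 0.16, limma adjusted p = 0.322) with WT-TAC1 and at -0.22 without it (limma adjusted p = 0.292), and it was below 0 under all 18 alternatives.

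**Figure D4:**
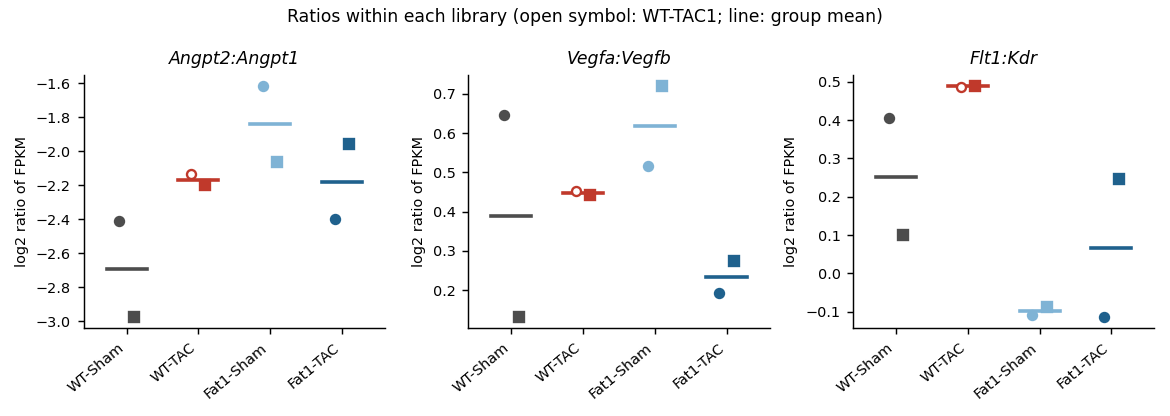
Log2 ratios of FPKM within each library for Angpt2 to Angpt1, Vegfa to Vegfb and Flt1 to Kdr, by group (circle, replicate 1; square, replicate 2; open circle, WT-TAC1; line, group mean). The open circle lay beside its WT-TAC partner in all 3 plots, and WT-TAC held the 2 highest ratios of Flt1 to Kdr.

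Ratios within a library do not depend on how libraries are scaled, and in them WT-TAC1 lay beside WT-TAC2. The size of a ratio depends on the lengths behind the FPKM of its genes, while log2 differences between libraries do not. Flt1 to Kdr was 1.40 in both WT-TAC libraries, 1.32 and 1.07 in WT-Sham, 0.927 and 0.940 in Fat1-Sham and 0.924 and 1.19 in Fat1-TAC. WT-TAC was therefore higher than each of the groups it was compared with, without overlap, by 0.24 over WT-Sham and 0.42 over Fat1-TAC on the log2 scale. Fat1-Sham lay 0.35 below WT-Sham, also without overlap. On the log2 scale, Angpt2 to Angpt1 was -1.84 ± 0.32 in Fat1-Sham against -2.69 ± 0.40 in WT-Sham, and -2.18 ± 0.31 in Fat1-TAC against -2.17 ± 0.05 in WT-TAC (SD, n = 2). The WT-Sham libraries had the 2 lowest ratios, so that Angpt1 exceeded Angpt2 by 5.31 and 7.85 times there and by 3.07 and 4.18 times in Fat1-Sham. Vegfa to Vegfb was 1.14 and 1.21 in Fat1-TAC, 1.43 and 1.65 in Fat1-Sham, 1.37 and 1.36 in WT-TAC and 1.56 and 1.10 in WT-Sham, and Fat1-TAC lay below Fat1-Sham and WT-TAC without overlap. Of the 12 comparisons of ratios, the smallest two-sided exact permutation p was 0.333, the least that 2 libraries against 2 can give.

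**Figure D5:**
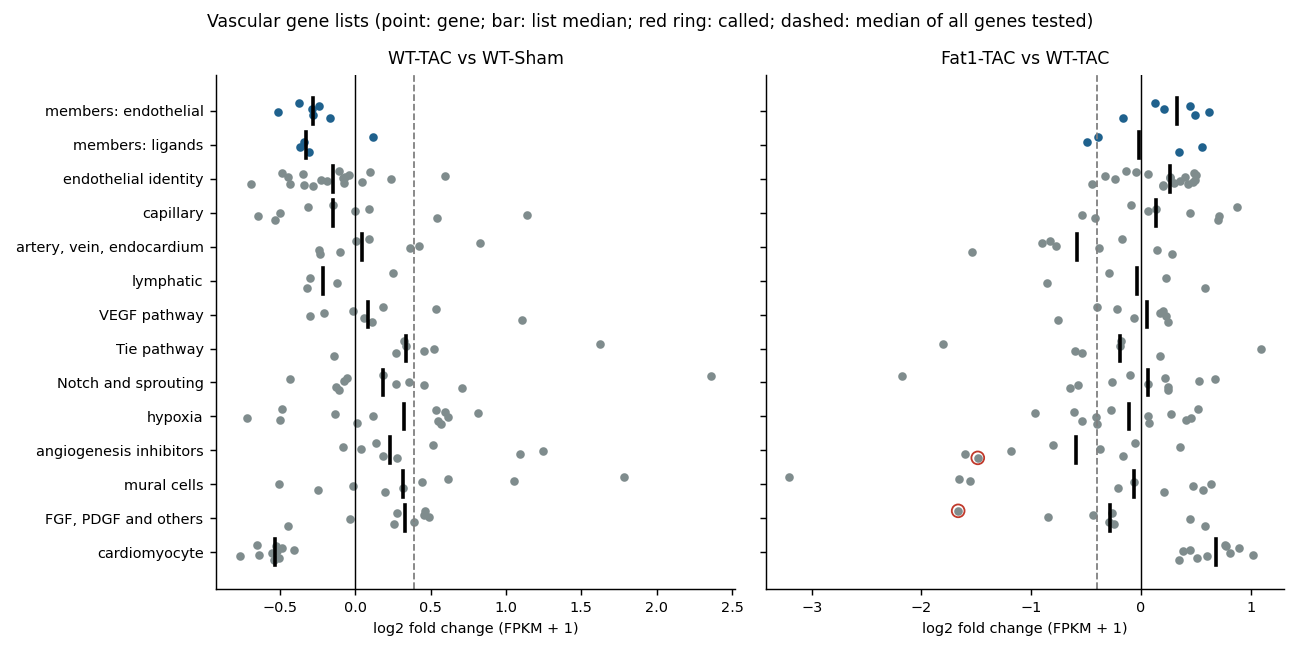
Log2 fold change of each tested gene of 14 lists for WT-TAC relative to WT-Sham and for Fat1-TAC relative to WT-TAC (points), with list medians (bars), called genes (red rings) and the median of all genes tested (dashed). The called genes among the vascular lists were Thbs1 and Ccn2, both lower in Fat1-TAC.

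Other vascular genes were taken from lists of their roles. Among 18 further genes of endothelial identity, 0 were called in any of the 4 comparisons of groups, the median was -0.15 in WT-TAC against WT-Sham (14 of 18 with a lower mean) and 0.27 in Fat1-TAC against WT-TAC (13 of 18 higher), and without WT-TAC1 these medians were -0.043 and 0.10. Fli1, an ETS factor, had the highest log2 fold change in WT-TAC against WT-Sham (0.59), with 22.1 FPKM in WT-TAC1 and 8.82 to 12.3 elsewhere, and Vwf, which encodes von Willebrand factor, the lowest (-0.69, SE 0.21, limma adjusted p = 0.175). Vwf had 60.5 and 81.3 FPKM in WT-Sham, 37.9 and 48.9 in WT-TAC, 48.3 and 56.1 in Fat1-Sham and 34.2 and 28.7 in Fat1-TAC. Its TAC libraries lay below the sham libraries of the same genotype in both genotypes, and its difference between Fat1-TAC and Fat1-Sham was -0.72 (SE 0.21, limma adjusted p = 1). TAC and sham groups did not overlap for 59.6% of all genes in WT and 48.3% in fat-1 hearts.

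Of 9 capillary genes, 0 were called. Rgcc (1.14) and Cd36, the fatty acid transporter of capillaries and muscle (-0.64), bounded the list in WT-TAC against WT-Sham. The list median moved from -0.15 to 0.24 without WT-TAC1, and that of all genes from 0.39 to 0.21. Of the 8 arterial, venous and endocardial genes 0 were called, with Ackr1 highest (0.83) and Sema3g lowest (-0.24), and of the 4 tested lymphatic genes 0, with Mmrn1 highest (0.25) and Prox1 lowest (-0.32). These 3 lists had medians of 0.14, -0.58 and -0.03 in Fat1-TAC against WT-TAC, beside -0.40 for all genes. Without WT-TAC1 the same medians were 0.066, -0.50 and -0.24, beside -0.20 for all genes.

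The other VEGF and TIE genes gave 0 calls of 8 and of 7 tested. Vegfd, a ligand of lymphatic vessels, was highest of its list in WT-TAC against WT-Sham (1.10, SE 0.31, limma adjusted p = 0.175), with 1.57 and 3.53 FPKM in WT-Sham and 5.61 and 7.13 in WT-TAC, and it stood at 1.25 without WT-TAC1. Flt4, the gene of VEGFR3, was lowest (-0.30). In the TIE list Dok2, an adaptor of TIE2 that blood cells also carry, was highest (1.62), with 76.4 FPKM in WT-TAC1 and 4.91 to 12.1 in the other libraries, and Ptprb, the phosphatase that acts on TIE2 and VE-cadherin, lowest (-0.14). Klf2, a flow-responsive factor downstream of TIE2 signalling that was chosen after its values were seen, had 87.3 and 72.2 FPKM in Fat1-TAC, 28.3 and 25.1 in Fat1-Sham, 27.5 and 48.8 in WT-TAC and 27.3 and 23.3 in WT-Sham. Klf2 differed between Fat1-TAC and Fat1-Sham by 1.54 (SE 0.27, limma adjusted p = 1) and was called under 0 of 19 alternatives. Over both genotypes Klf2 was higher after TAC by 1.03 (limma adjusted p = 0.165) and was called under 4 of 18 alternatives, among them that without WT-TAC1 (1.23, limma adjusted p = 0.0236). It was called under 1 alternative each in Fat1-TAC against WT-TAC, in the interaction and in fat-1 against WT over both surgeries.

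Of the 11 Notch and sprouting genes 0 were called, with Cxcr4 at 2.36 and Aplnr, the apelin receptor, at -0.43 in WT-TAC against WT-Sham. Cxcr4, which lymphocytes also carry, had 101 FPKM in WT-TAC1 and 2.91 to 5.63 FPKM elsewhere. Of 12 genes of the hypoxia response, which governs Vegfa, 0 were called, and Car9 (0.81) and Egln3 (-0.72) bounded the list. Of the 9 tested mural genes 0 were called, between Abcc9 (-0.50) and the smooth muscle gene Cnn1 (1.78).

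Among 8 angiogenesis inhibitors, 1 gene was called. Thbs1, the gene of thrombospondin-1, which restrains endothelial growth, had 3.72 and 5.77 FPKM in Fat1-TAC and 12.1 and 18.2 FPKM in WT-TAC, and it fell by 1.49 on the log2 scale (SE 0.27, limma adjusted p = 0.0836). Thbs1 also had 4.27 and 5.22 FPKM in Fat1-Sham and 12.4 and 11.8 FPKM in WT-Sham, so its 4 fat-1 libraries were the 4 lowest, and the difference between the sham groups was -1.20 (SE 0.27, limma adjusted p = 1). The 4 fat-1 and 4 WT libraries did not overlap for 5.54% of all genes. Without WT-TAC1 the value in Fat1-TAC against WT-TAC was -1.76 (limma adjusted p = 0.0468), and Thbs1 kept its sign under 19 alternatives and its call under 5. The other 7 inhibitors were not called, and the list ran from Vash1 (-0.08) to Cxcl10 (1.25) in WT-TAC against WT-Sham. Among the other growth factors acting on vessels, Ccn2, a matrix protein of fibrosis, was called lower in Fat1-TAC than in WT-TAC (-1.67, SE 0.22, limma adjusted p = 0.0384), with 16.5 and 14.9 against 50.9 and 52.9 FPKM, and it was called under 11 of 19 alternatives and without WT-TAC1 (-1.69, limma adjusted p = 0.0620). In that list Igf1 (0.49) was highest and Fgf1 (-0.45) lowest in WT-TAC against WT-Sham. Between Fat1-TAC and WT-TAC, where the median of all genes was -0.40, fibroblast genes had a median of -0.88, with Col1a2 and Col3a1 called lower. Macrophage genes had a median of -0.65, with Lyz2 called lower. The fibroblast and macrophage medians without WT-TAC1 were -0.86 and -0.56, beside -0.20 for all genes. Without WT-TAC1, Col1a2 stood at -1.28 and Col3a1 at -1.04 and neither was called (limma adjusted p = 0.163 and 0.176), while Lyz2 was (-0.85, limma adjusted p = 0.0602). Under 19 alternatives they were called 6, 3 and 5 times.

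The genes whose levels ran most like the mean of the 6 endothelial genes over the 8 libraries included Efcab2 (Pearson r = 0.988), Lrrc24 (0.987), Phyh (0.984), Coq7 (0.983), Etfa (0.977), Pmpcb (0.977) and Stom (0.976), out of 9479 genes with a mean of 5 FPKM or more. These 7 had their lowest value in WT-TAC1, and without that library their r lay between 0.530 and 0.789. For Vegfb the likest were Rai2 (0.996), Asph (0.995) and Ak1 (0.994), for Vegfa Kif16b (0.988), Auh (0.978) and Lrtm1 (0.968), for Angpt1 Nr1h3 (0.933), Tspan6 (0.921) and Pf4 (0.912), and for Angpt2 Commd9 (0.944), Hamp (0.911) and Ston1 (0.894). These are descriptions over 8 libraries that share their groups.

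Among the 10 genes themselves, the tie between members depended on the same library. Cdh5 and Flt1 had r = 0.89 over 8 libraries and -0.13 over 7 without WT-TAC1, and Flt1 with Tie1 went from 0.78 to -0.80. Pecam1 followed Angpt1 with r = 0.81 in either set, and Cdh5 ran against Angpt1 with -0.41 over 8 and -0.84 over 7 libraries. Cdh5 and Vegfb kept a positive r of 0.96 and 0.63.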

How the data were processed

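RNA-sequencing of mouse ventricles was analysed in 8 libraries, 2 per group. The authors deposited FPKM values per gene, and the submitters' processing notes name HISAT2 and the build mm10 (GRCm38). The counting program is not given in the sources used here. Of 25929 genes, 25852 had a symbol, and 4 blank lines were dropped.

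Fragments were recovered from the FPKM values, which came out as whole fragments (within 0.001) for 100.0% of genes at a length fitted per gene. limma 3.58.1 (R 4.3.3; lmFit, eBayes with a trend) was run on log2(FPKM + 1) over genes that reached 1 FPKM in 2 or more libraries, with 4 group means and Benjamini-Hochberg adjustment. A fold change on this scale understates that of low genes. The script was tested on simulated data. The 10 genes and the lists (191 genes with the members, of which Pdpn and Rag2 were not found) were chosen with earlier results of these data known. Named genes were all members, called list genes, the highest and lowest gene of each vascular list in WT-TAC against WT-Sham, and the genes with the highest r, of which 1 is not reported here.

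Alternatives were 4 scalings (that to cardiomyocyte genes was chosen after seeing the data), filters, a pseudocount of 0.1, only the groups compared, a replicate block, a per-gene test, limma-voom on recovered fragments and leaving out each library. Comparisons over both surgeries or both genotypes were added after seeing the data. The labels call replicates independent samples without naming animals, so p-values measure the spread between libraries.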

Additional observations from a re-analysis of the deposited data

Results flagged for a closer look

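Flt4, the gene of VEGFR3, met the rule for groups that move in opposite ways. It had 6.30 and 5.34 FPKM in WT-Sham, 3.85 and 5.27 in WT-TAC, 5.12 and 5.21 in Fat1-Sham and 5.38 and 5.52 in Fat1-TAC, so that both TAC libraries lay below sham in WT hearts and above it in fat-1 hearts, and fat-1 lay below WT after sham and above it after TAC. The difference of the log2 fold changes was 0.37 in either reading (SE 0.30, limma adjusted p = 0.531), and 0.18 without WT-TAC1 (limma adjusted p = 0.721). Groups did not overlap for 32% of all genes between the sham groups and 66.4% between the TAC groups. For TAC against sham these shares were 59.6% in WT and 48.3% in fat-1 hearts. With 2 libraries a group, single libraries could not be tested for lying apart from their group.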

How the results depend on the processing

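The values here are medians of the log2 fold changes of the 10 genes, and the scaling to cardiomyocyte genes was chosen after seeing the data. WT-TAC against WT-Sham gave -0.764 with median-of-ratios scaling, -0.626 with quantile normalization and 0.271 with cardiomyocyte scaling, where leaving out single libraries gave -0.617 to 0.036 and 0 to 6 called genes. Fat1-TAC against WT-TAC gave 0.742, 0.640 and -0.362 in the same order and 0.035 when scaled to endothelial genes, with -0.081 to 0.640 without single libraries. The interaction gave 0.663, 0.612, -0.328 and -0.093, with -0.026 to 0.450 and 0 to 4 called genes. Fat-1 against WT over both surgeries gave 0.410, 0.413 and -0.169 in the first 3 settings. TAC against sham over both genotypes gave -0.421 with median-of-ratios and 0.103 with cardiomyocyte scaling. Members were called only without WT-TAC2, which left WT-TAC1 alone in its group. What moved these values was not tested. None of the 10 genes was called in the main test, so there was no call that could change sign. With cardiomyocyte scaling all 10 lay above 0 in WT-TAC against WT-Sham and below 0 in Fat1-TAC against WT-TAC.

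Over all genes, 135 were called between the WT groups and 206 between the TAC groups, and the alternatives gave 0 to 7408 and 0 to 7837, the highest without WT-TAC2. Same-numbered libraries of different groups did not deviate together (r between -0.135 and 0.024), so the numbers were not taken as pairs, and with a replicate block 0 of the 10 genes were called in any comparison, and 52 of all genes in each of these 2 comparisons. Angpt2 was not tested with a filter at a mean of 5 FPKM, and its 64 to 120 fragments per library limit its precision.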
